A study of Homo sapiens with 16 samples.

Results

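The 9 genes described here, NQO1, HMOX1, GCLC, GCLM, SRXN1, TXNRD1, PGD, FTH1 and FTL, are known targets of the transcription factor NRF2 or, for FTH1 and FTL, encode the subunits of ferritin. They were chosen by symbol from the 60676 rows of a table of read counts per gene, and all 9 had a row. RNA sequencing was carried out on HCT116 cells, a human colorectal carcinoma line. The cells carried an shRNA labelled shCTL, the control, or shNELFE, against NELFE, a subunit of the negative elongation factor that holds RNA polymerase II near promoters. Each line was treated with DMSO, the vehicle, with EPZ-5676 (pinometostat, an inhibitor of the histone H3K79 methyltransferase DOT1L), with HMBA (hexamethylene bisacetamide, which releases the elongation kinase P-TEFb from its HEXIM1-bound store), or with both compounds. That made 8 groups of 2 libraries: shCTL and shNELFE, each with DMSO, EPZ-5676, HMBA, or EPZ-5676 with HMBA. The labels used here gave neither doses nor times and did not say whether cells were a clone or a pool. No label says whether the 2 libraries of a group were grown apart, so each p-value speaks to the scatter among these libraries, which may be technical.

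Of the 16 libraries, 9 were compared: the 8 numbered 2, 1 in each group, and shNELFE with both compounds, replicate 1. The other 7, all numbered 1, stood apart from their labels, and the 9 were chosen with that known. HEXIM1, which HMBA is known to induce, stood at 338 to 385 CPM (counts scaled to a common library total) in the 5 HMBA libraries of the 9 and at 66.8 to 81.6 CPM in the 4 without. On one scale for all 16 libraries, HEXIM1 stood between 43.2 and 76.1 CPM in all 7 others, 3 of which are labelled as HMBA-treated. In the 9 libraries NELFE averaged 17.1 ± 3.33 CPM (SD, n = 5) with shNELFE and 74.4 ± 5.71 CPM (SD, n = 4) with shCTL. The total count per library ran from 13428893 to 17867037 in the 9, so that a count of 3, taken as the limit of detection, equalled 0.168 to 0.223 CPM; these limits cover counting error only. A single pair of libraries among the 9 shared a group, so the spread behind each test came mostly from how far the libraries departed from additive effects of the 3 factors.

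NRF2, encoded by NFE2L2, is bound in unstressed cells by KEAP1, which brings it to a ubiquitin ligase and so to degradation. Electrophiles and oxidants modify KEAP1, and NRF2 then accumulates, pairs with a small MAF protein and binds antioxidant response elements near genes for thiol metabolism, glutathione synthesis, NADPH supply and quinone reduction. BACH1 competes for the same elements and is released from them by heme. Ferritin is a shell of heavy (FTH1) and light (FTL) chains that stores iron, and its translation is blocked by iron regulatory proteins, which bind a stem-loop in the 5′ leader of both mRNAs when iron is scarce.

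The core of the antioxidant response element, TGACNNNGC, is shown because it is the sequence through which NRF2 is known to act on these genes. Windows from 250 bases before to 50 bases after the start, from RefSeq on GRCh38.p14, were at hand for 7 of the 9 genes. Searched on both strands, the core was found in the windows of PGD, GCLM and TXNRD1 and not in those of GCLC, NQO1, FTL and SRXN1. Sequence outside the windows was not searched, so a window without the core does not mean that the gene lacks the element. Across all 35116 windows of that length, 13.3% held it. The second motif searched, TGANTCA, the shape of an AP-1 site, was in 7.71% of all windows and in those of none of the 7 genes. With no match to the second motif, no 2 matches of the pair overlapped in these windows. A match is a description of letters and not of binding, and 4 of the matches are given 5′ to 3′ with the core in capitals, read on the strand that holds it. They lie at chr1:10398852-10398881 (minus strand), 201 bases before the RefSeq start of PGD, and at chr1:93909446-93909475 (plus strand), 34 bases before that of GCLM. For TXNRD1 they lie at chr12:104215670-104215699 (plus strand) and chr12:104286919-104286948 (minus strand), 99 and 102 bases before its first and second RefSeq starts. The gene spans given below come from GENCODE, whose starts can differ from those of RefSeq. By those spans the PGD match and that of the second TXNRD1 start lie inside the gene. The printed GCLM stretch reaches into its gene. The first TXNRD1 window held one more match, 8 bases before its start.

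PGD: agcacctagaTGACATTGCcccggcgaggc

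GCLM: tggaagacaaTGACTAAGCagaaatcgtag

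TXNRD1, first start: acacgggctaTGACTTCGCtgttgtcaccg

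TXNRD1, second start: agagtcagaaTGACAAAGCagaaatccact

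In a single fit over the 9 libraries, with terms for the shRNA, EPZ-5676 and HMBA, SRXN1, FTL, PGD, GCLC, NQO1 and FTH1 rose with HMBA by 1.38- to 1.91-fold and TXNRD1 fell to 0.778 of its level. GCLM and HMOX1 did not pass the test. The fit called a gene where edgeR's quasi-likelihood test gave a Benjamini-Hochberg adjusted p under 0.05 over the 14912 genes tested, all 9 genes among them. HMBA called 63.0% of all genes tested, 31.0% higher and 32.0% lower. Against that background, 77.8% of the 9 genes were called, 66.7% higher and 11.1% lower, and their median log2 fold change was 0.58, against 0.02 over all genes. The share of the 9 called was near this background, and whether their share of rises stood apart from it was not tested.

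**Figure D1:**
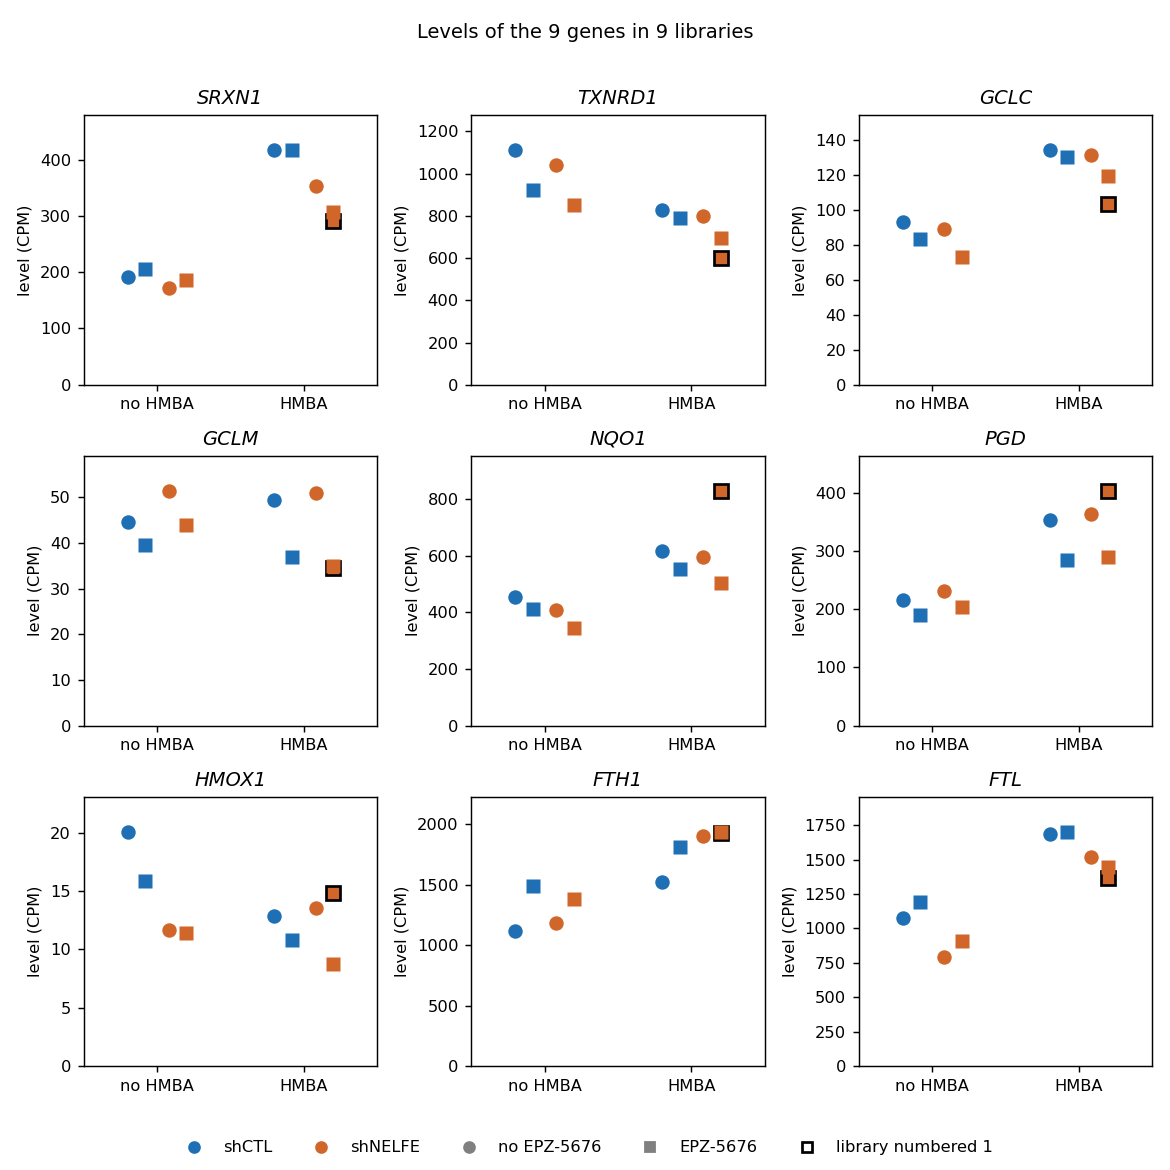
Level of each of the 9 genes (CPM on TMM-scaled totals, one panel per gene, each axis from 0) in the 4 libraries without and the 5 with HMBA. Each point is 1 library, blue for shCTL and orange for shNELFE, with circles for no EPZ-5676, squares for EPZ-5676 and a black outline for the library numbered 1. The arms are apart in SRXN1 and TXNRD1, in opposite directions, and overlap in GCLM and HMOX1.

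Levels are given in CPM on TMM-scaled library totals, in 1 order throughout. Without HMBA the order is shCTL with DMSO, shNELFE with DMSO, shCTL with EPZ-5676 and shNELFE with EPZ-5676. With HMBA it is shCTL with HMBA, shNELFE with HMBA, shCTL with both compounds, and shNELFE with both compounds, replicate 2 and then replicate 1. Fold changes are on the log2 scale with their standard error (SE), and the tests named are those of that fit.

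SRXN1 (ENSG00000271303) encodes sulfiredoxin, which reactivates over-oxidised peroxiredoxins. Its gene lies at chr20:646615-653370 on the minus strand of hg38 (GENCODE 29). Without HMBA its levels were 191, 171, 205 and 187 CPM. With HMBA they were 416, 352, 416.5, 307 and 291 CPM. Every HMBA library stood above every library without it, and among the HMBA libraries the 2 with shCTL were the highest. The means were 357 ± 59.0 CPM (SD, n = 5) and 189 ± 14.1 CPM (SD, n = 4), a log2 fold change of 0.94 (SE 0.09, edgeR adjusted p = 7.66e-06), the largest rise among the 9 genes. In pairs of libraries that differ in HMBA alone it was higher with HMBA in 4 of 4, by 0.72 to 1.12.

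TXNRD1 (ENSG00000198431, chr12:104215779-104350305, plus strand) encodes cytosolic thioredoxin reductase, which uses NADPH to keep thioredoxin reduced; sulfiredoxin in turn draws on thioredoxin. Its levels without HMBA were 1111, 1040.3, 920.4 and 851 CPM. With HMBA they were 827, 797, 792, 695 and 601 CPM. All 5 HMBA libraries were lower than all 4 others, and within each arm the libraries with shNELFE and EPZ-5676 were the lowest. TXNRD1 fell from 981 ± 117 CPM (SD, n = 4) to 742 ± 93.5 CPM (SD, n = 5), a log2 fold change of -0.36 (SE 0.08, edgeR adjusted p = 0.00271), and was lower in 4 of 4 pairs. Genes that overlap TXNRD1, on either strand, held at most 103 counts in a library, against at least 8684 for TXNRD1.

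SRXN1 and TXNRD1 are the pair that moved furthest apart. Their opposite shifts, given above, already fix that their ratio differs between the arms, and the ratio itself was not tested. To compare the levels of SRXN1 and TXNRD1, counts were taken per length of the gene's exons (CPM per kilobase). SRXN1 stood at 0.409 to 0.555 of the TXNRD1 level in the 4 libraries without HMBA and at 1.10 to 1.31 times that level in the 5 with it. Which of the pair stands higher per length depends on the exon lengths used. These were 2698 bases for SRXN1 and 6708 for TXNRD1 and take in all annotated isoforms. Which isoforms were expressed was not determined. In CPM alone TXNRD1 was above SRXN1 in all 9 libraries. The ratio within a library does not depend on how totals are scaled, and its shift between the arms does not depend on the lengths. The 250 bases before each RefSeq start (GRCh38.p14) are printed to set the pair side by side. They lie at chr20:653201-653450 on the minus strand for SRXN1 and chr12:104215529-104215778 on the plus strand for TXNRD1. By the GENCODE gene spans given above, chr20:653201-653370 of the SRXN1 stretch lies inside SRXN1. The TXNRD1 stretch lies wholly before its gene. By that annotation the stretches, and their shares of G and C, thus do not compare like regions. The SRXN1 stretch is 80.4% G and C and the TXNRD1 stretch 56.4%, and the capitals in the latter mark the TGACNNNGC match.

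SRXN1 upstream: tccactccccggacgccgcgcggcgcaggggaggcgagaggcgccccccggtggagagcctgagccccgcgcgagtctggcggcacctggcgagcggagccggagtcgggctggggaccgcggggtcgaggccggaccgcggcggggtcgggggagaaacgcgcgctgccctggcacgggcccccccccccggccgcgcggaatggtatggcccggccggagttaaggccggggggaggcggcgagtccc

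TXNRD1 upstream: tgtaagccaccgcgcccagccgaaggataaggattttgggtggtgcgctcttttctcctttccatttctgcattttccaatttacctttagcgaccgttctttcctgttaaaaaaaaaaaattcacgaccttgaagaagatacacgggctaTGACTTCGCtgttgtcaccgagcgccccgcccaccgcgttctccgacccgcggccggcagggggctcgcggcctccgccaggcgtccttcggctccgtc

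GCLC and GCLM encode the catalytic and the modifier subunit of glutamate-cysteine ligase, which carries out the rate-limiting step of glutathione synthesis. GCLC (ENSG00000001084, chr6:53497341-53616970, minus strand) stood at 93.4, 89.5, 83.6 and 73.2 CPM without HMBA and at 134, 132, 130.3, 119.8 and 103 CPM with it. The lowest HMBA library, shNELFE with both compounds, replicate 1, was still above the highest library without HMBA. GCLC rose from 84.9 ± 8.77 CPM (SD, n = 4) to 124 ± 12.7 CPM (SD, n = 5), a log2 fold change of 0.58 (SE 0.08, edgeR adjusted p = 0.000117), and was higher in 4 of 4 pairs.

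GCLM (ENSG00000023909, chr1:93885205-93909456, minus strand) was at 44.7, 51.4, 39.5 and 44.1 CPM without HMBA and at 49.4, 51.0, 36.8, 34.9 and 34.5 CPM with it. The arms overlapped, the 3 lowest values being those of HMBA with EPZ-5676. Its HMBA log2 fold change was -0.10 (SE 0.10, edgeR adjusted p = 0.359), and it was higher with HMBA in 1 of 4 pairs and lower in 3. Per length, GCLC stood at 1.04 to 1.33 times GCLM without HMBA and at 1.62 to 2.22 times with it, with no overlap. On library totals with no TMM scaling GCLM passed the test as lower (log2 fold change -0.37, edgeR adjusted p = 0.0175).

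NQO1 (ENSG00000181019, chr16:69706996-69726951, minus strand) encodes a quinone reductase that is widely used as a readout of NRF2. It stood at 453, 407, 412 and 346 CPM without HMBA and at 616, 593, 552, 504 and 828 CPM with it. The highest value, 828 CPM, was in shNELFE with both compounds, replicate 1, and its partner, replicate 2, had the lowest of the HMBA libraries. NQO1 rose from 404 ± 44.2 CPM (SD, n = 4) to 619 ± 125 CPM (SD, n = 5), a log2 fold change of 0.62 (SE 0.15, edgeR adjusted p = 0.00367), and was higher in 4 of 4 pairs.

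PGD (ENSG00000142657, chr1:10398592-10420144, plus strand) encodes 6-phosphogluconate dehydrogenase, a source of NADPH in the pentose phosphate pathway. Its levels were 216, 232, 190.0 and 203 CPM without HMBA and 354, 364, 286, 291 and 404 CPM with it. No library of one arm reached into the other. PGD rose from 210 ± 18.0 CPM (SD, n = 4) to 339.5 ± 50.5 CPM (SD, n = 5), a log2 fold change of 0.69 (SE 0.10, edgeR adjusted p = 0.000167), and was higher in 4 of 4 pairs.

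HMOX1 (ENSG00000100292, chr22:35380361-35394214, plus strand) encodes heme oxygenase, which opens the heme ring and frees its iron. By its mean over the 9 libraries it was the scarcest of the 9 genes per length, although GCLM was lower in shCTL with DMSO. HMOX1 held 118 to 312 counts per library. Its levels were 20.1, 11.7, 15.9 and 11.4 CPM without HMBA and 12.9, 13.5, 10.8, 8.73 and 14.8 CPM with it. The arms overlapped, and the highest libraries were the 2 with shCTL and no HMBA. The HMBA log2 fold change was -0.21 (SE 0.18, edgeR adjusted p = 0.337). It passed the test as lower without the library numbered 1 (-0.35, edgeR adjusted p = 0.0267) and with unscaled totals (-0.48, edgeR adjusted p = 0.0225).

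The iron-responsive loops of the ferritin mRNAs are shown because they are the known point of control of both subunits, at a step that mRNA counts do not measure. The loop letters CAGTGN, in capitals, were found by script in the 5′ leader of each transcript (GENCODE 29, GRCh38), at chr11:61967573-61967602 on the minus strand for FTH1 and chr19:48965335-48965364 on the plus strand for FTL.

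FTH1 loop: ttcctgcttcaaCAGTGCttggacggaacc

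FTL loop: ctcttgcttcaaCAGTGTttggacggaaca

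FTH1 (ENSG00000167996, chr11:61959718-61967660, minus strand), the heavy chain with ferroxidase activity, stood at 1118, 1179.6, 1489.55 and 1381 CPM without HMBA and at 1521, 1903, 1813, 1935 and 1924 CPM with it. All HMBA libraries were above all others, although shCTL with HMBA was only just above shCTL with EPZ-5676. FTH1 rose from 1292 ± 173 CPM (SD, n = 4) to 1819 ± 174 CPM (SD, n = 5), a log2 fold change of 0.47 (SE 0.09, edgeR adjusted p = 0.000879), and was higher in 4 of 4 pairs. On unscaled totals it missed the threshold (0.20, edgeR adjusted p = 0.0512).

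FTL (ENSG00000087086, chr19:48965301-48966878, plus strand), the light chain that helps iron form its mineral core, stood at 1074, 793, 1192 and 909 CPM without HMBA and at 1687, 1515, 1701, 1448 and 1363 CPM with it. Every HMBA library was higher than every library without it, and in both arms the shCTL libraries were the highest. FTL rose from 992 ± 176 CPM (SD, n = 4) to 1543 ± 148 CPM (SD, n = 5), a log2 fold change of 0.68 (SE 0.09, edgeR adjusted p = 4.88e-05), and was higher in 4 of 4 pairs. Reads from processed copies of the ferritin genes cannot be told apart from the genes' own where sequences match; the 41 rows of such copies together held 59 to 108 counts in a library, and of the 5 that could be tested none passed.

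**Figure D2:**
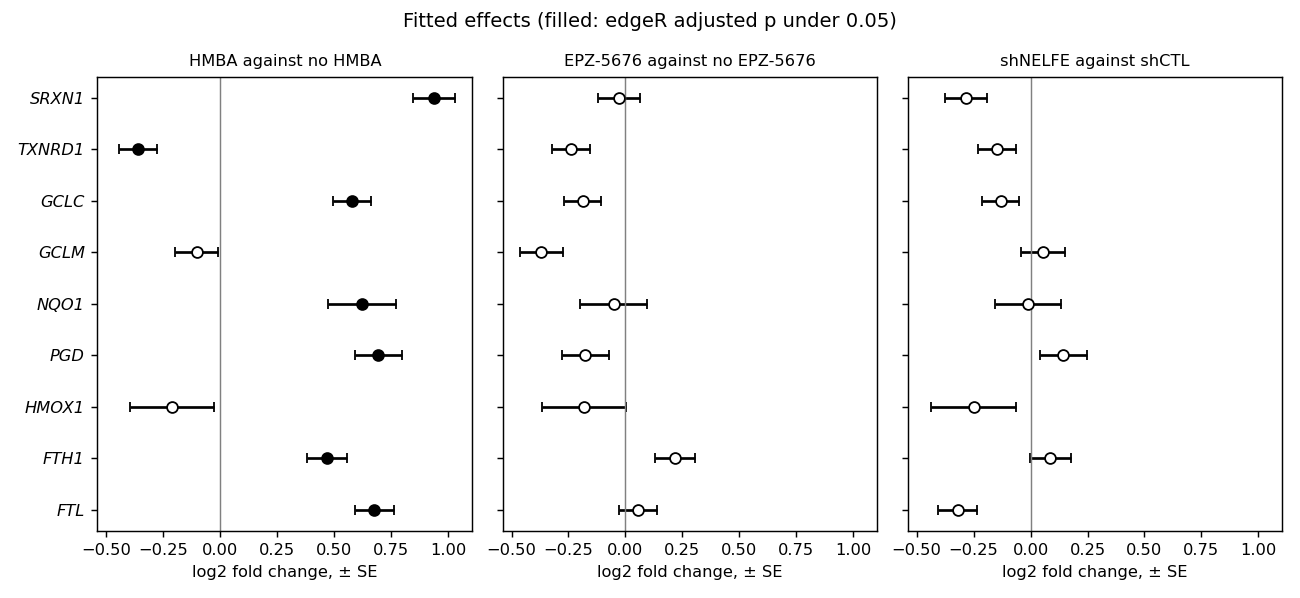
Log2 fold change with its SE (horizontal axis) of the 9 genes for HMBA, EPZ-5676 and shNELFE, 1 panel each; filled points have an edgeR adjusted p under 0.05. HMBA has 7 filled points, from -0.36 for TXNRD1 to 0.94 for SRXN1, and the other panels have none.

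Marker and quality measures were taken in the same libraries, and the part of those that moved with HMBA in the results was not tested. Mitochondrially encoded genes took 8.87 to 12.2% of counts with HMBA and 6.12 to 6.90% without. The summed level of 4 endothelial markers was 11.2 to 15.1 CPM with HMBA and 2.34 to 3.55 CPM without, and 2 of the 3 tested rose. Most of the sum with HMBA was PECAM1, at 8.69 to 12.1 against 0.744 to 1.47 CPM. KDR also rose, VWF did not pass (0.402 to 1.55 against 0.858 to 0.992 CPM) and CDH5 was too low to test. Of 6 fibroblast markers 1 could be tested, and it rose; their sum was 32.7 to 51.5 against 9.84 to 30.5 CPM, with LUM at 0 in all 9 libraries. The 5 immune markers summed to 0.513 to 1.11 against 0.172 to 0.335 CPM, with CD3E at 0 throughout and none tested. The 6 mesenchymal markers summed to 31.1 to 53.4 against 25.2 to 43.4 CPM, ranges that overlap. Of the 4 tested 2 rose, and 0 did so on unscaled totals or without replicate 2 of shCTL with DMSO, EPZ-5676, HMBA or both, or of shNELFE with HMBA (1 without replicate 2 of shNELFE with DMSO and 1 with no filter). The 10 colon epithelium markers summed to 4652 to 7867 against 4460 to 5972 CPM; of the 7 tested, 1 rose and 2 fell, with 1 to 4 falling over the alternatives on these libraries. In bulk RNA a change in the share of cells of a kind and a change in RNA per cell cannot be told apart. TMM scaling also differed between the arms: on unscaled totals the median log2 fold change of all genes was -0.24 in place of 0.02, and SRXN1, FTL, PGD, GCLC and NQO1 still passed as higher and TXNRD1 as lower.

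EPZ-5676 gave no call among the 9 genes. The fit called 30 genes in all, 0.201% of those tested (0.0671% higher and 0.134% lower), and 0 of the 9, of which 4 had an unadjusted p under 0.05, as did 1695 of all 14912 genes (11.4%); DESeq2 and limma-voom called 0 of the 9 as well. The median log2 fold change of the 9 was -0.18, against 0.02 over all genes. GCLM had the smallest p: it averaged 38.0 ± 3.94 CPM (SD, n = 5) with EPZ-5676 and 49.1 ± 3.07 CPM (SD, n = 4) without, with a log2 fold change of -0.37 (SE 0.10, edgeR adjusted p = 0.161). All 5 EPZ-5676 libraries were below all 4 others for GCLM, the closest being 44.1 and 44.7 CPM, and it was lower in 4 of 4 pairs. NQO1, HMOX1, GCLC, TXNRD1 and PGD were also lower in 4 of 4 pairs. TXNRD1 had a log2 fold change of -0.24 (edgeR adjusted p = 0.296) and GCLC of -0.19 (edgeR adjusted p = 0.422). FTH1 had the highest value, 0.22 (edgeR adjusted p = 0.382), and was higher with EPZ-5676 in 4 of 4 pairs. In the 8 libraries numbered 2 alone, GCLM (-0.34, edgeR adjusted p = 0.0335) and PGD (-0.25, edgeR adjusted p = 0.0243) passed as lower, among 563 calls.

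The shNELFE libraries likewise gave 0 calls among the 9 genes, where 353 genes, 2.37% of those tested, were called (0.764% higher and 1.60% lower). Of the 9, 2 had an unadjusted p under 0.05, as did 2899 of all genes (19.4%). DESeq2 called 1 and limma-voom 0, and the median log2 fold change was -0.13, against 0.01 over all genes. FTL had the smallest p, with a log2 fold change of -0.32 (SE 0.08, edgeR adjusted p = 0.0778), and was lower with shNELFE in 4 of 4 pairs, by -0.44 to -0.16. SRXN1 followed with -0.28 (edgeR adjusted p = 0.130), also lower in 4 of 4 pairs. So were NQO1, GCLC and TXNRD1, while PGD was higher in 4 of 4 pairs. FTL passed as lower with DESeq2 (-0.31, adjusted p = 0.0107), with no filter on low counts (-0.33, edgeR adjusted p = 0.0308), on unscaled totals (-0.37, edgeR adjusted p = 0.0472) and without the library numbered 1 (-0.30, edgeR adjusted p = 0.00717). SRXN1 passed as lower only without that library (-0.24, edgeR adjusted p = 0.0291), among 1940 calls.

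Neither ferritin subunit passed for shNELFE; FTH1 had a log2 fold change of 0.09 (edgeR adjusted p = 0.628), beside -0.32 for FTL. Per length, FTL stood at 1.85 to 2.56 times FTH1 in the 4 shCTL libraries and at 1.52 to 1.84 times in the 5 shNELFE libraries. The groups did not overlap, with a gap far smaller than the spread within either, and the difference was noticed after the values were seen and was not tested. In pairs of libraries numbered 2 that differ in 1 factor, the ratio was lower with shNELFE in 4 of 4, lower with EPZ-5676 in 4 of 4 and higher with HMBA in 4 of 4, although the HMBA arms overlapped as a whole, at 1.64 to 2.56 with and 1.52 to 2.22 without. The differences with EPZ-5676 and HMBA were not tested either. The exon length used for FTH1, 2030 bases, takes in isoforms longer than its common mRNA, which lowers its level per length in every library alike.

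**Figure D3:**
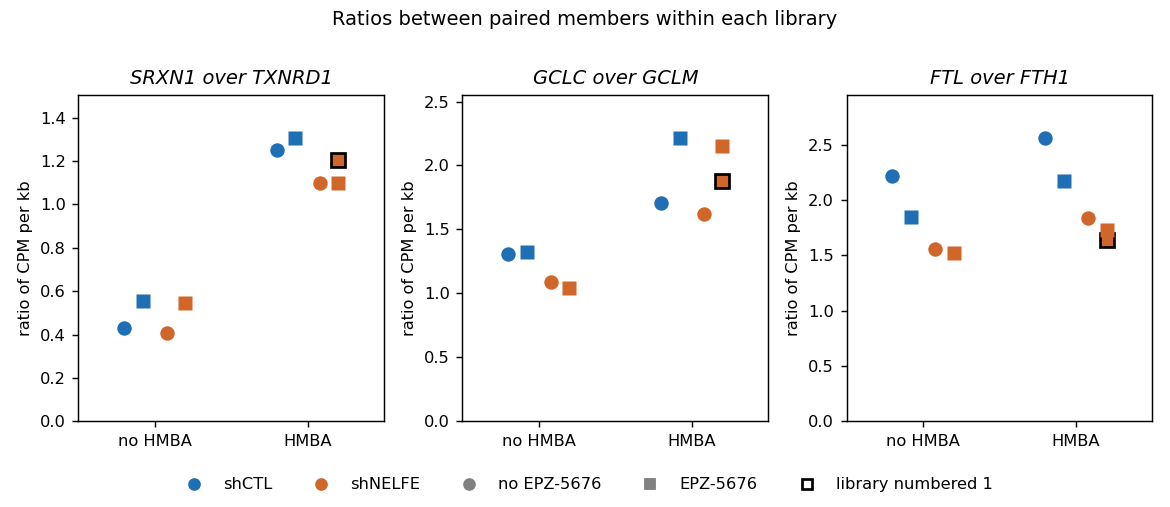
Ratio of CPM per kilobase between members of a pair (vertical axis, from 0) in libraries without and with HMBA, for SRXN1 to TXNRD1, GCLC to GCLM and FTL to FTH1. Each point is 1 library, blue for shCTL and orange for shNELFE, circles for no EPZ-5676 and squares for EPZ-5676, outlined for the library numbered 1; SRXN1 to TXNRD1 runs from 0.409 to 0.555 without HMBA and from 1.10 to 1.31 with it.

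Whether the effect of one factor depended on another was tested with a product term for each pair of factors, added to the fit alone. HMBA with shNELFE gave 2 calls over all genes, 0.0134% of those tested, and the 2 other products gave 0, with 385 genes for HMBA with EPZ-5676 and 114 for EPZ-5676 with shNELFE at an unadjusted p under 0.05 (DESeq2 1 and 3 calls, limma-voom 0 and 0). None of the 9 genes passed for any of the 3 products, in edgeR, DESeq2 or limma-voom. HMOX1 was the only one of the 9 with an unadjusted p under 0.05, for HMBA with shNELFE (log2 0.73, SE 0.31, edgeR adjusted p = 0.879), a product for which 623 of all genes (4.18%) had one. In shCTL cells HMOX1 stood at 20.1 and 15.9 CPM without HMBA and at 12.9 and 10.8 CPM with it, while in shNELFE cells it stood at 11.7 and 11.4 CPM without and at 13.5, 8.73 and 14.8 CPM with it. The shNELFE values overlapped and the shCTL values did not, a difference that the adjusted test did not separate from the spread.

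The only pair of libraries within a group shows what 2 libraries of 1 label can differ by. In shNELFE cells with both compounds, replicate 1 was above replicate 2 by 0.76 (log2) for HMOX1, 0.72 for NQO1 and 0.47 for PGD. For these 3 the gap was wider than 0.37, the median gap over 14782 genes. For the other 6 it was narrower, from -0.21 for GCLC and TXNRD1 to -0.01 for FTH1. The gaps for NQO1 and HMOX1 exceeded those genes' fitted HMBA log2 fold changes.

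Across genes, levels can be set in order only per length, and the order depends on the exon lengths used, which take in all annotated isoforms. FTL was the highest, at 1478 ± 373 CPM per kilobase (SD over the 9 libraries), followed by FTH1 at 781 ± 158. NQO1 (161 ± 44.8), TXNRD1 (126 ± 23.7), SRXN1 (105 ± 36.4) and PGD (95.1 ± 26.2) came next, and their ranges over the 9 libraries overlapped. GCLC (12.3 ± 2.67), GCLM (7.92 ± 1.25) and HMOX1 (5.53 ± 1.38) were the lowest, again with overlapping ranges between neighbours. Such ranges span the treatments and do not compare 2 genes within a library. There GCLC stood at 1.04 to 2.22 times GCLM in all 9, and the order of SRXN1 and TXNRD1 per length differed between the arms. Together the 9 genes took 0.450 to 0.548% of all counts with HMBA and 0.440 to 0.506% without, and the 2 ferritin genes alone 0.266 to 0.335% and 0.218 to 0.298%.

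The genes that act above and beside the 9 moved in both directions with HMBA. Of 10 regulators of NRF2, all tested, 2 rose, 5 fell and 3 did not pass, with a median log2 fold change of -0.58. That is 70% called, near the 63.0% of all genes. NFE2L2, which encodes NRF2 itself, fell from 166 ± 7.73 CPM (SD, n = 4) to 59.6 ± 7.15 CPM (SD, n = 5), a log2 fold change of -1.47 (edgeR adjusted p = 3.66e-07). KEAP1, its repressor, fell further, from 87.4 ± 5.67 CPM to 22.5 ± 2.81 CPM (log2 fold change -1.98, edgeR adjusted p = 3.87e-08). Both were thus lower at the mRNA level in every HMBA library than in any other. The small MAF genes split: MAFK (-1.35) and MAFG (-1.10) fell, while MAFF rose from 18.2 to 67.2 CPM (1.88). BACH2, a relative of BACH1 that stood at 9.08 CPM without HMBA, fell (-1.08), and BACH1 did not pass (0.25, edgeR adjusted p = 0.189). SQSTM1, whose protein can draw KEAP1 into autophagy, rose from 322 ± 24.5 to 805 ± 121 CPM (SD, n = 4 and 5; log2 fold change 1.30).

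Among other known NRF2 targets the share called, 62.1%, was near the 63.0% of all genes. Of 34 listed, 29 were tested, and 14 rose, 4 fell and 11 did not pass, with a median of 0.34; on unscaled totals 9 rose and 8 fell, with a median of 0.075. Without shNELFE with EPZ-5676, replicate 2, 9 rose and 4 fell. The share that rose was 48.3% and the share that fell 13.8%, against 31.0% and 32.0% of all genes, a difference that was not tested. EPHX1, a microsomal epoxide hydrolase, rose from 33.1 to 120.03 CPM (1.78), and IDH1, which makes NADPH in the cytosol, from 101 to 226 CPM (1.17). TRIM16 fell from 88.1 to 12.6 CPM (-2.79), as did its near copy TRIM16L (-2.04), although reads could be shared between these 2.

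The list of 23 other glutathione and thiol enzymes also takes in related genes such as SOD1 and SESN2. Of the 23, 22 had a row and 20 were tested. Of those tested, 14 rose, none fell and 6 did not pass, with a median of 0.50. The share called, 70%, was near the 63.0% of all genes, of which 31.0% rose and 32.0% fell; whether the list's split stood apart was not tested. On unscaled totals 10 rose and 1 fell. SESN2, which encodes a stress-induced sestrin, rose from 7.33 to 59.0 CPM (2.99). GPX4, the enzyme that reduces lipid hydroperoxides, rose from 249 to 390 CPM at a log2 fold change of 0.64, GLRX2, a mitochondrial glutaredoxin, rose by 0.86 and SOD1, the cytosolic superoxide dismutase, by 0.69.

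Iron handling genes showed no common direction. Of 20 listed, 18 were tested, and 7 rose, 8 fell and 3 did not pass, with a median of -0.02; with RLE scaling and with DESeq2 7 rose and 7 fell. Over all genes the split was as even, at 31.0% higher and 32.0% lower. TFRC, the transferrin receptor that brings iron in, rose from 423 to 774 CPM (0.79). NCOA4, which carries ferritin to the lysosome for iron release, rose from 175 to 314 CPM (0.87). Of the iron regulatory proteins, ACO1 rose (0.70) and IREB2 fell (-0.33, edgeR adjusted p = 0.0417), a call that 7 of 14 alternative settings lost. HMOX2, the constitutive heme oxygenase, rose (0.85), while SLC25A28, a mitochondrial iron importer (-0.69), and PCBP1, an iron chaperone (-0.73), fell. SLC40A1, which encodes the iron exporter, held 0 or 1 counts in every library and was not tested.

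**Figure D4:**
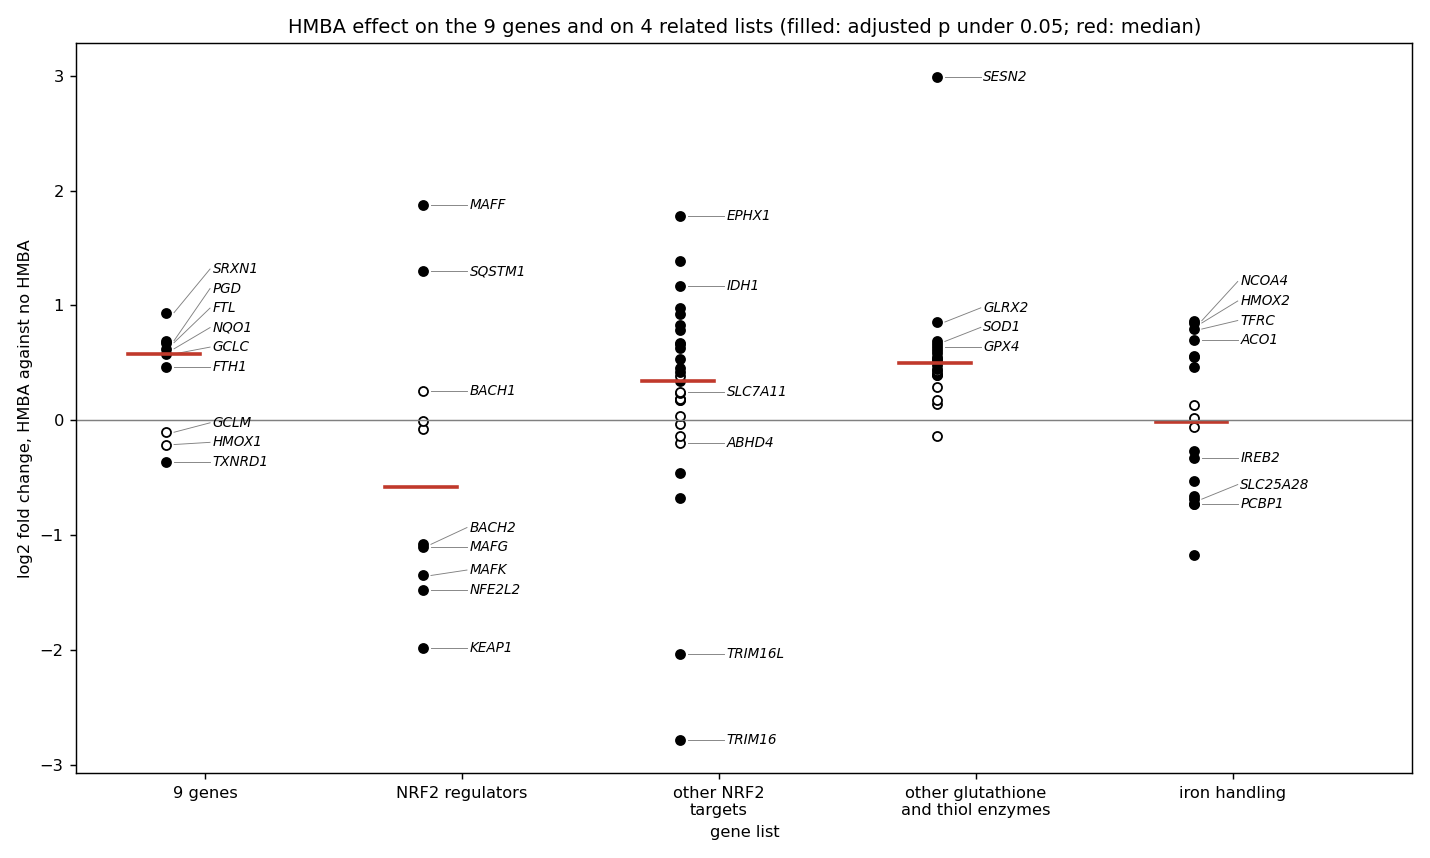
Log2 fold change with HMBA (vertical axis) of the 9 genes and of 4 related lists, each point a gene, filled where the edgeR adjusted p is under 0.05, with a red bar at each median. The medians run from -0.58 for the NRF2 regulators to 0.58 for the 9 genes, and the lists other than the 9 hold calls in both directions except the glutathione and thiol enzymes, where no call is lower.

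In these 4 lists EPZ-5676 gave 0 calls and shNELFE gave 2, both lower and both among the other NRF2 targets. Of the 77 list genes tested that is 2.6%, against 2.37% of all genes, while EPZ-5676 called 0.201% of all genes. SLC7A11, the cystine importer that feeds glutathione synthesis, fell from 81.0 ± 19.0 CPM (SD, n = 4) in shCTL to 35.4 ± 3.74 CPM (SD, n = 5) in shNELFE libraries, a log2 fold change of -1.16 (SE 0.11, edgeR adjusted p = 0.00135), and was lower in 4 of 4 pairs, by -1.41 to -0.84. No shNELFE library reached the lowest shCTL library. ABHD4 fell by 0.70 on the log2 scale (edgeR adjusted p = 0.03999), from 5.88 to 3.58 CPM, and lost its call when any of 8 of the 9 libraries was left out.

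As a description over these 9 libraries, which share the 3 factors, the levels of the 9 genes followed each other only in part. Pearson's r of log2 CPM was 0.954 between SRXN1 and FTL, 0.926 between NQO1 and PGD and 0.925 between SRXN1 and GCLC, and -0.900 between TXNRD1 and FTH1. Among 9216 genes of at least 10 CPM, the 2 most alike were RPLP0 (0.990) and SLC25A23 (0.989) for SRXN1, PARP14 (0.984) and CDK17 (0.983) for TXNRD1, ALCAM (0.998) and FRMD6 (0.995) for GCLC, and SEPTIN8 (0.934) and LRRCC1 (0.928) for GCLM. For NQO1 they were PSME1 (0.993) and GLO1 (0.990), for PGD APP (0.995) and APOBEC3C (0.993), for HMOX1 S100A16 (0.961) and ERBB2 (0.919), for FTH1 SLC25A33 (0.980) and KLHL26 (0.966), and for FTL DNAJB2 (0.978) and TRIM26 (0.977). An r of at least 0.9 was common: SRXN1 had it with 723 genes, PGD with 701 and NQO1 with 568, but HMOX1 with only 8 and GCLM with 5.

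In the 7 libraries left aside the same genes stood elsewhere, on a scale set over all 16. GCLM was at 8.25 to 19.0 CPM in the 7 against 33.2 to 50.9 CPM in the 9. SRXN1 ran from 72.7 to 111 against 169 to 413 CPM, and TXNRD1 from 125 to 358 against 578 to 1088 CPM. These 3 did not overlap, but neither did KEAP1, PCBP1 and NCOA4. The share of all genes that stood so far apart was not counted. GCLC was below all of the 9 in 6 of the 7, at 21.7 to 82.7 CPM. NQO1 ran more widely, from 148 to 1155 CPM against 335 to 797, as did FTL, from 427 to 2169 against 785 to 1686 CPM. PGD, at 235 to 595 CPM against 184 to 388, was above all of the 9 in 5 libraries, and FTH1, at 1484 to 2116 CPM against 1095 to 1891, in 3. HMOX1 stayed within the range of the 9, at 13.2 to 18.0 CPM. With all 16 libraries in the fit, edgeR called 0 genes for each of the 3 factors. Of the 9 genes, 1 had an unadjusted p under 0.05 for HMBA, and 2 had one with a replicate block. No share over all genes is given beside these counts.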

How the data were processed

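Gene-level read counts for 16 libraries were used as deposited; they are whole numbers with unequal totals, so not normalized. The submitters' processing notes name STAR 2.4.0b, HTSeq 0.6.1p1, Cufflinks 2.1.1, edgeR and hg38, without their roles; which annotation and strand setting were used is not given in the sources used here. Positions and exon lengths come from GENCODE 29, in which 58503 of 60676 rows were found. In R 4.3.3, edgeR 4.0.16 (TMM, filterByExpr, quasi-likelihood test, Benjamini-Hochberg) was fitted to 9 libraries with terms for shRNA, EPZ-5676 and HMBA. The fit was also run on simulated counts, which had the same spread for every gene and few changed genes. These libraries differ from that setting, so the simulation does not speak to the calls here. Alternatives were RLE scaling, unscaled totals, no filter, DESeq2 1.42.0, limma-voom (limma 3.58.1), the 8 libraries numbered 2, each library left out, and all 16 libraries, fitted plainly and again with a replicate block. Of the other genes, the text names set regulators, up to 4 genes with the smallest p per list and factor at 2 CPM or more, and for each member the 2 most alike. A gene that this rule also names is not reported here. The members and lists were chosen with earlier results of these data known. The depth of 13428893 to 21319666 counts per library limits precision for HMOX1 and genes near the filter.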

Additional observations from a re-analysis of the deposited data

How the results depend on the processing

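Over the 14 alternatives run on the 9 libraries or subsets of them (the 8 libraries numbered 2 being the 9 without the library numbered 1, counted once), HMBA kept its call and direction for SRXN1, FTL, PGD, GCLC, NQO1 and TXNRD1, and for FTH1 in 13. The number of genes called for HMBA lay between 8035 and 10443 when any library was left out. For EPZ-5676 it was 248 with no filter on low counts, 235 with DESeq2 and 563 in the 8 libraries numbered 2, and 1 to 563 with a library left out. For shNELFE it was 767, 919 and 1940 in the same settings and 66 to 1940 with a library left out. For the product of HMBA and shNELFE it was 75, 23 and 36, and 0 to 36 with a library left out, and for that of HMBA and EPZ-5676 5, 1 and 5, and 0 to 5. For EPZ-5676 with shNELFE it was 4 with no filter, 3 with DESeq2 and 0 with any library left out. Among the fits with a library left out, the highest count for EPZ-5676, shNELFE and the first 2 products came without the library numbered 1 (shNELFE with both compounds, replicate 1), and the cause was not tested. On unscaled totals 30.2% of HMBA calls were higher, against 49.2%, and 23.6% of shNELFE calls, against 32.3%. With all 16 libraries the fits called 0 genes for HMBA, EPZ-5676 and shNELFE, both with no replicate block and with it. Over all 16 libraries, the deviations of same-numbered libraries from their group means correlated at 0.065 to 0.961 over 28 pairs of groups. The median was 0.431, and 24 were above 0.1. The closest library had the same number in 15 of 16 cases and the same group in 0. The profiles thus went with the number more than with the group, and the cause was not tested. The 7 libraries left aside were not all alike: FTL stood above all of the 9 in 2 of them and below in 5. Small fitted values changed sign. For EPZ-5676, NQO1 ran from -0.19 to 0.015 with a library left out, SRXN1 from -0.087 to 0.019 (0.0083 in the 8 libraries) and FTL from -0.0020 to 0.13; for shNELFE, NQO1 ran from -0.15 to 0.058 and GCLM from -0.0047 to 0.10. With 16 libraries and no replicate block, the log2 fold change was 0.24 for NQO1, 0.11 for SRXN1 and 0.040 for PGD with EPZ-5676, 0.43 for NQO1 and 0.075 for GCLC with shNELFE, and 0.16 for GCLM with HMBA. With the replicate block it was 0.19 for NQO1, 0.18 for SRXN1 and 0.055 for TXNRD1 with EPZ-5676, 0.35 for NQO1, 0.18 for GCLC and 0.091 for SRXN1 with shNELFE, and 0.34 for GCLM and 0.13 for TXNRD1 with HMBA. The causes of these changes were not tested. Depth limits HMOX1 most, at 118 to 312 counts.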
